A study of Mus musculus with 12 samples.

Results

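Microglia, the resident macrophages of the brain, were followed through 9 genes that mark them in the undisturbed state: Tmem119, P2ry12, P2ry13, Cx3cr1, Csf1r, Trem2, Tyrobp, Aif1 and Siglech. The genes were taken by symbol from the 23183 symbols of the deposited tables, and all 9 were present. The RNA came from hippocampus and prefrontal cortex of male C57BL/6 mice. In 3 mice the abdomen had received X-rays, with 13 Gy in the library names, and 3 mice without irradiation were the controls. By the mouse numbers in the titles, each mouse gave 1 library per region. The 12 libraries thus formed 4 groups of 3: irradiated hippocampus, control hippocampus, irradiated prefrontal cortex and control prefrontal cortex. The brain itself was not the irradiated site. Per the labels, tissue was taken in the chronic phase of the gut injury. No transgene or other agent is named for any of the 6 mice. Their age and the time since the X-rays were not given in the sources used here.

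Microglia survive on signals from neighbouring cells. Csf1r, a receptor tyrosine kinase, binds Csf1 and Il34 and is needed for microglia to live, Cx3cr1 is the receptor for the neuronal chemokine Cx3cl1, and P2ry12 and P2ry13 are receptors for extracellular ADP that steer the processes of resting microglia. Trem2 binds lipids and lipoproteins and passes its signal through the adaptor Tyrobp, which also serves other receptors. Aif1 encodes Iba1, the actin-binding protein stained to show microglia, Tmem119 is a membrane protein used to tell microglia from blood-derived macrophages, and Siglech is a lectin-like surface receptor. In many brain disorders the resting genes P2ry12, Tmem119 and Cx3cr1 go down while a disease-associated programme that includes Trem2 signalling goes up.

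The macrophage factor PU.1, the product of Spi1, recognises purine-rich sites with the core GAGGAA. The promoters of 2 genes with these letters are shown, whose last 60 bases touch no annotated exon. P2ry13 in prefrontal cortex and Trem2 in hippocampus were lower without overlap between treatments, as were 7.44% and 8.16% of all genes there. So were Aif1, Cx3cr1 and Siglech in hippocampus, and in both regions Tyrobp, whose promoter was not searched. A link between these letters and the treatment differences was not tested. The RefSeq promoter table (GRCm38) held windows for 6 of the 9 genes that were used here, and the search covered both strands. The letters GAGGAA were found in the 250 bases before the start in 3 of the 6 (P2ry13, Trem2 and Aif1), against 23.3% of 32851 windows. In the last 60 bases before the start they were found in the same 3, against 6.08% of windows. Annotated exons covered all 60 bases for P2ry12 and Cx3cr1, 16 for Aif1 and 6 for Siglech. The match is capitalised, on the gene's strand for P2ry13 and on the opposite strand for Trem2, where it reads TTCCTC. The 2 stretches shown lie at chr3:59210883-59210942 on the minus strand and chr17:48346341-48346400 on the plus strand and touch no annotated exon. A match of letters does not show that the factor binds there.
P2ry13: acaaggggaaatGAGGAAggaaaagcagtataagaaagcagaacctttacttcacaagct
Trem2: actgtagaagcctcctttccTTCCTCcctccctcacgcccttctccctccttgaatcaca

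No unit is named for the values, which were taken as FPKM, scaled for transcript length and for the total of the library. Levels of genes of unlike length compare only roughly, since the tilt with length differed between libraries, as given below. In control hippocampus the order ran from Tyrobp (32.1 ± 1.16 FPKM, SD, n = 3) through Csf1r (26.1 ± 0.258), P2ry12 (19.1 ± 1.73), Trem2 (15.1 ± 0.801), Cx3cr1 (15.0 ± 0.523), Tmem119 (13.4 ± 0.472), Aif1 (8.65 ± 0.995) and Siglech (5.51 ± 0.241) to P2ry13 (5.11 ± 0.539). The libraries of neighbours in this order overlapped for Trem2 with Cx3cr1 and for Siglech with P2ry13. Control prefrontal cortex had the same order apart from Trem2 (12.8 ± 1.17 FPKM), which came after Cx3cr1 (14.7 ± 1.38). There P2ry12 also overlapped with Cx3cr1, Cx3cr1 with Trem2, and Trem2 with Tmem119 (12.5 ± 0.924). In irradiated prefrontal cortex Csf1r (26.6 ± 0.820 FPKM) stood above Tyrobp (24.7 ± 4.03), with overlapping libraries. In every group the 3 most abundant were Tyrobp, Csf1r and P2ry12, and the least abundant was P2ry13.

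Between the regions of control mice all 9 genes had higher means in hippocampus, by small amounts whose direction was not stable for all of them. With equal totals P2ry13 and Siglech were lower in hippocampus, with the length trend removed Tyrobp and Siglech were, and with 1 library left out up to 3 were. The log2 differences, taken throughout on log2(FPKM + 1), ran from 0.01 for Siglech to 0.23 for Trem2, with a median of 0.06 against 0.01 over all genes tested. The test treated the libraries of both regions as independent, although by the titles they come from the same mice. None of the 9 passed limma's test at an adjusted p of 0.05, while 30.3% of the 12923 genes tested did. At an unadjusted p under 0.05 there was 1, against 20.9% of all genes higher in hippocampus: Trem2 (adjusted p = 0.0691 by limma). Trem2 passed when the 4 groups were fitted together (adjusted p = 0.0405). Of 15 ligands and signalling partners tested, 3 passed as lower and 2 as higher in hippocampus, beside 30.3% of all genes passing. Il34 was higher in prefrontal cortex (31.6 ± 2.38 against 18.3 ± 0.745 FPKM, log2 difference, hippocampus minus cortex, -0.76, adjusted p = 6.29e-05 by limma). So was Cx3cl1 (215 ± 13.9 against 147 ± 6.13 FPKM, -0.54, adjusted p = 0.000278). Tgfb2 was higher in hippocampus (2.19, adjusted p = 8.89e-07 by limma). Csf1, the other ligand of Csf1r, was higher in hippocampus (7.73 ± 0.526 against 5.57 ± 0.426 FPKM, 0.41, adjusted p = 0.00609), a gene named after its values were seen.

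**Figure D1:**
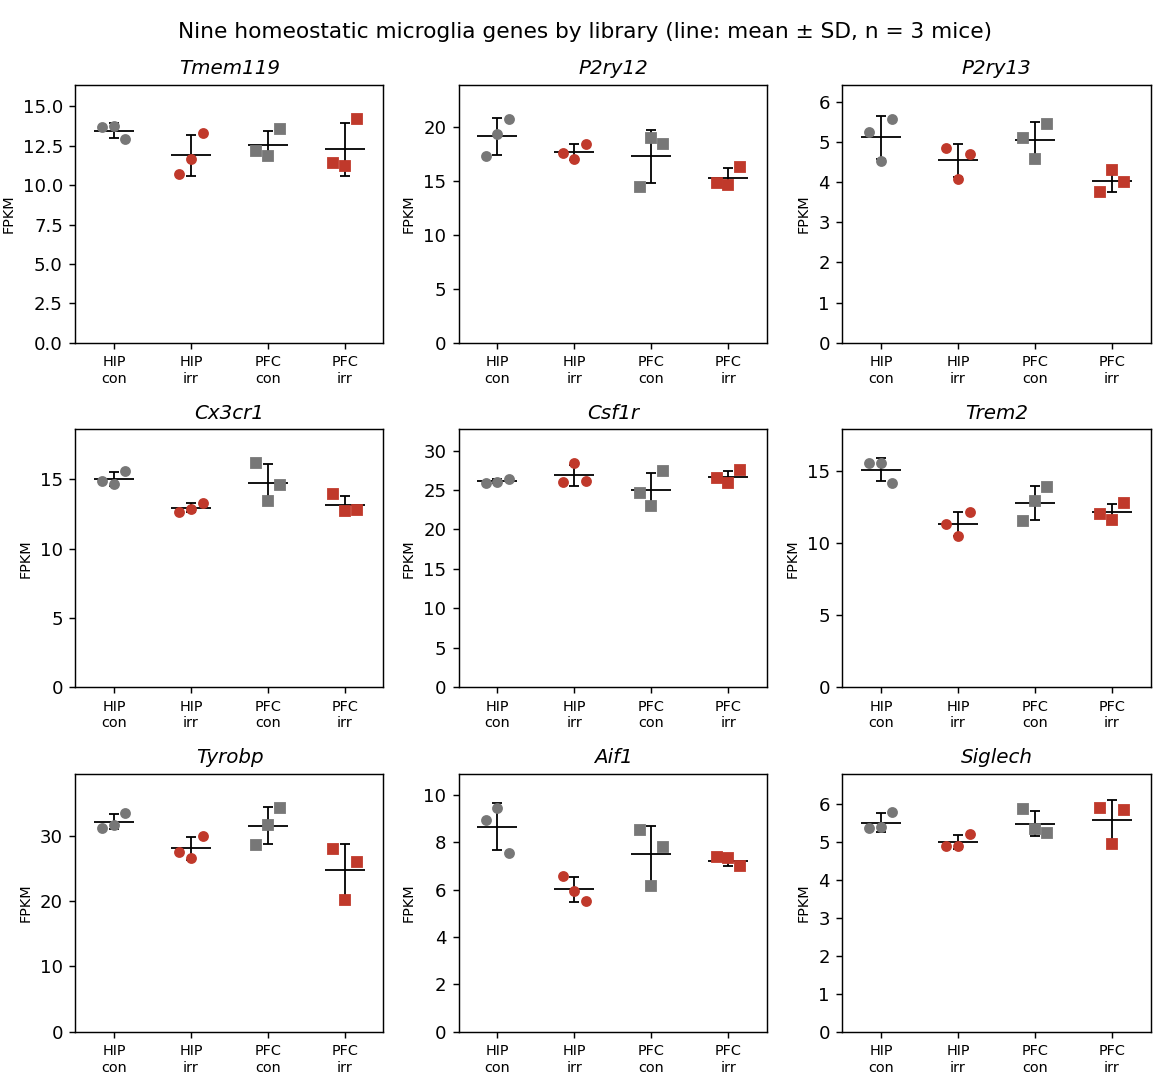
FPKM of each gene by group (HIP, hippocampus; PFC, prefrontal cortex; con, control; irr, irradiated), with 1 point per library and a line with bars for the mean ± SD of 3 mice; each y axis starts at 0. In hippocampus the irradiated points of Cx3cr1, Trem2, Tyrobp, Aif1 and Siglech all lie under the control points, and in prefrontal cortex those of P2ry13 and Tyrobp do.

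In hippocampus after abdominal irradiation, 8 of the 9 genes had lower means than in control mice, against 53.0% of all genes tested. Csf1r was not lower. The difference was clearest for Trem2 and Aif1, whose irradiated means were 0.750 and 0.694 times the control means, and for Cx3cr1 at 0.860 times. None of the 9 passed limma's test after adjustment over 12947 genes, and neither did any other gene (0% called). At an unadjusted p under 0.05, 4 of the 9 were lower, against 5.81% of all genes tested. In 5 of the 9 every irradiated library was under every control library, against 8.16% of all genes. With values rescaled to equal totals this count was 4, against 2.77% of all genes. Under equal totals 8 of the 9 were still lower, but their median log2 difference went from -0.17 to -0.09. P2ry12 then came to -0.02 and Siglech to -0.04. In RNA from whole tissue, fewer microglia and less of these RNAs per microglial cell cannot be told apart.

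Trem2, the lipid receptor, measured 11.3, 10.5 and 12.2 FPKM in the irradiated hippocampi and 15.6, 15.5 and 14.2 FPKM in the controls. The groups did not overlap, and all 3 irradiated libraries were low. The log2 difference was -0.39 (95% interval -0.55 to -0.22, unadjusted p = 0.000684, adjusted p = 0.417 by limma). Its gene spans chr17:48346401-48354147 on the plus strand (mm10).

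Tyrobp, the adaptor of Trem2, measured 27.6, 26.6 and 30.0 FPKM after irradiation and 31.2, 31.7 and 33.4 FPKM in controls. The groups were close but separate, with irradiated mouse 3 nearest to the controls. Its log2 difference of -0.19 (interval -0.33 to -0.05) had an adjusted p of 0.475 by limma. The gene lies at chr7:30413760-30417585 on the plus strand.

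Aif1, at chr17:35170991-35176068 on the minus strand, had the lowest ratio of the 9 in hippocampus. It measured 6.55, 5.96 and 5.51 FPKM in irradiated mice and 8.95, 9.46 and 7.54 FPKM in controls, without overlap. The log2 difference was -0.46 (interval -0.68 to -0.24, unadjusted p = 0.00151, adjusted p = 0.417 by limma). With about 90 to 153 fragments per library, estimated from the values, Aif1 had the fewest of the 9, and counting alone gives it a relative error of 8.08% to 10.6%.

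Cx3cr1, the fractalkine receptor, varied little within groups in hippocampus. The irradiated hippocampi gave 12.7, 12.8 and 13.3 FPKM and the controls 14.9, 14.6 and 15.6 FPKM, and the gap between the groups was wider than the range within either. The log2 difference was -0.20 (interval -0.33 to -0.07, unadjusted p = 0.00681, adjusted p = 0.475 by limma).

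The ADP receptors overlapped between treatments in hippocampus. P2ry12 measured 17.5, 17.0 and 18.4 FPKM after irradiation against 17.3, 19.3 and 20.7 FPKM in controls, where control mouse 1 fell within the irradiated range. P2ry13 measured 4.84, 4.08 and 4.69 FPKM against 5.24, 4.52 and 5.58 FPKM. Their log2 differences of -0.11 (interval -0.28 to 0.06) and -0.14 (interval -0.36 to 0.08) include 0. Both genes lie in introns of Med12l on its opposite strand and share no exon base with it.

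The surface proteins Tmem119 and Siglech had ratios of 0.884 and 0.907 to the control mean, and intervals that include 0. Tmem119 measured 10.7, 11.7 and 13.3 FPKM after irradiation and 13.7, 13.7 and 12.9 FPKM in controls, and irradiated mouse 3 overlapped the controls. Siglech measured 4.90, 4.89 and 5.22 FPKM against 5.36, 5.38 and 5.79 FPKM, a narrow separation. Their log2 differences were -0.17 (interval -0.36 to 0.02) and -0.12 (interval -0.28 to 0.05).

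Csf1r was the exception. The irradiated hippocampi gave 26.0, 28.4 and 26.1 FPKM and the controls 25.9, 26.1 and 26.4 FPKM, overlapping, with a log2 difference of 0.04 (interval -0.09 to 0.16). At its 3′ end 873 of its 4885 exon bases are also exon of Hmgxb3 on the other strand, and the sources used here do not say whether counting used the strand. Hmgxb3 was higher in irradiated hippocampus (11.1, 12.1 and 11.7 against 10.6, 10.5 and 10.6 FPKM). Its part in the Csf1r value was not tested.

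In prefrontal cortex the clearest differences were in other members: Tyrobp and P2ry13 were the 2 genes without overlap, and Trem2 and Aif1 differed little from controls. Negative differences were found for 7 of the 9, against 48.8% of all genes tested. The median log2 difference was -0.07 against 0.00 over all genes, while in hippocampus the medians were -0.17 and -0.01. The direction depended on the processing: with values rescaled to equal totals per library 4 of the 9 were lower, with a median of 0.00, and with the transcript length trend removed 5 were lower, with a median of -0.01. None of the 9 passed limma's test at an adjusted p of 0.05, against 0.00786% of 12729 genes (1 gene). At an unadjusted p under 0.05, 2 of the 9 were lower, against 4.79% of all genes. The 2 without overlap stand against 7.44% of all genes, and became 0 with equal totals and 1 (P2ry13) with the length trend removed.

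Tyrobp measured 27.9, 20.2 and 26.0 FPKM in irradiated cortex and 28.6, 31.7 and 34.3 FPKM in controls. Irradiated mouse 2 was far under the other libraries. The log2 difference was -0.35 (interval -0.62 to -0.08, unadjusted p = 0.0159, adjusted p = 0.554 by limma) and -0.22 without that library.

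P2ry13, at chr3:59207892-59210882 on the minus strand, measured 3.75, 4.30 and 4.0 FPKM against 5.10, 4.56 and 5.45 FPKM in controls. The groups did not overlap, and all 3 irradiated libraries were low. The log2 difference was -0.27 (interval -0.47 to -0.06, unadjusted p = 0.0182, adjusted p = 0.558 by limma), with 177 to 262 fragments estimated per library over both regions.

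P2ry12 measured 14.8, 14.6 and 16.3 FPKM in irradiated cortex and 14.5, 19.0 and 18.4 FPKM in controls. Control mouse 1 was the lowest library of all, so the groups overlapped (log2 difference -0.16, interval -0.40 to 0.07). Cx3cr1 measured 13.9, 12.7 and 12.8 FPKM against 16.2, 13.4 and 14.6 FPKM, with irradiated mouse 1 above control mouse 2 (log2 difference -0.15, interval -0.34 to 0.04). Across treatments a mouse number joins different mice, so pairs of libraries by number are arbitrary. In such pairs Cx3cr1, P2ry13 and Tyrobp were lower after irradiation in 3 of 3 and Csf1r was higher in 3 of 3. The same count was not made over all genes. With the mouse number as a replicate block Cx3cr1 had an adjusted p of 0.591 and Csf1r of 0.753 by limma.

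Trem2 measured 12.0, 11.6 and 12.8 FPKM in irradiated cortex and 11.5, 12.9 and 13.9 FPKM in controls, which overlap (log2 difference -0.07, interval -0.26 to 0.13). Aif1 measured 7.37, 7.33 and 6.99 FPKM against 8.52, 6.17 and 7.80 FPKM, where control mouse 2 was the lowest of the 6 (log2 difference -0.04, interval -0.28 to 0.21). With equal totals they were 0.00 and 0.03, and with the length trend removed 0.03 and 0.09. Tmem119 (11.4, 11.2 and 14.2 against 12.2, 11.8 and 13.6 FPKM), Siglech (5.91, 4.96 and 5.84 against 5.86, 5.34 and 5.24 FPKM) and Csf1r (26.5, 25.9 and 27.5 against 24.6, 22.9 and 27.3 FPKM) all overlapped between treatments. Their log2 differences were -0.03, 0.02 and 0.09.

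The difference of the irradiation effect between the regions was tested directly over all 12 libraries, each treated as independent. None of the 9 passed, nor did any of the 12894 genes (0% called by limma), and 2 of the 9 had a negative difference with an unadjusted p under 0.05, against 1.35% of all genes. These 2 were Trem2 (hippocampus minus cortex -0.32, interval -0.56 to -0.08, unadjusted p = 0.0125, adjusted p = 1.00) and Aif1 (-0.42, interval -0.75 to -0.09, unadjusted p = 0.0156, adjusted p = 1.00). Tyrobp (0.16, interval -0.16 to 0.47), P2ry13 (0.12, interval -0.16 to 0.41) and P2ry12 (0.06, interval -0.24 to 0.35) differed in the opposite direction, with intervals that include 0. By the titles the regions share their mice, which the fit behind these p-values and intervals did not use. An effect seen in one region is not shown to be missing from the other.

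When each mouse was counted once, by its mean over both regions, 51.9% of all genes tested were lower after irradiation. Of the 9, 8 were again lower (7 with equal totals, where Siglech turned to 0.02). In 5 of them (P2ry13, Cx3cr1, Trem2, Tyrobp and Aif1) all 3 irradiated mice were under all 3 control mice, against 8.84% of all genes tested. The same 5 had an unadjusted p under 0.05, against 6.07% of all genes. Their log2 differences were -0.20 for P2ry13, -0.18 for Cx3cr1, -0.23 for Trem2, -0.27 for Tyrobp and -0.25 for Aif1. None passed after adjustment (adjusted p from 0.385 to 0.450 by limma), and 0.00776% of the 12894 genes did (1 gene). Tmem119 (-0.10), P2ry12 (-0.14), Siglech (-0.05) and Csf1r (0.07) had intervals that include 0. In the means per mouse with the length trend removed, only P2ry13 (-0.18) and Cx3cr1 (-0.20) kept an unadjusted p under 0.05 by limma. Trem2 (-0.13), Tyrobp (-0.09) and Aif1 (-0.12), the members under 1500 bases, did not. These means use the same libraries as the comparisons by region and are no independent evidence.

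**Figure D2:**
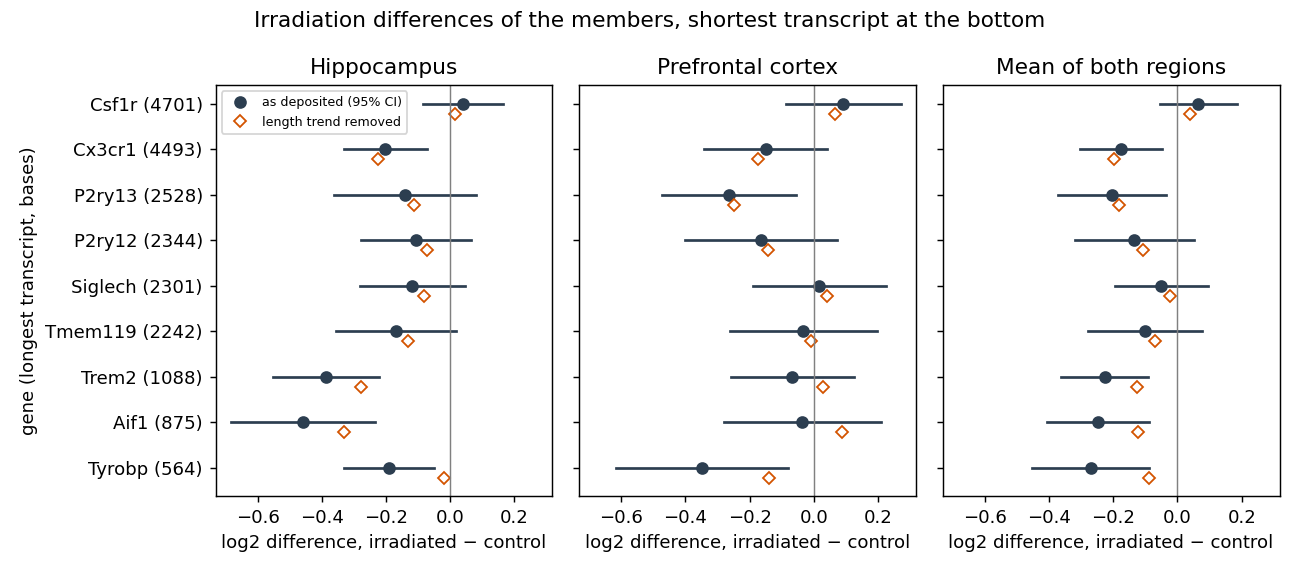
Log2 difference (irradiated minus control, on log2(FPKM + 1)) of each gene in hippocampus, prefrontal cortex and the mean of both regions per mouse, with filled points and 95% intervals for the values as deposited and open diamonds for values with the length trend removed; genes are ordered by transcript length. Tyrobp, the shortest, moves from -0.19 to -0.02 in hippocampus, while Cx3cr1 stays at -0.20 and -0.22.

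The irradiation difference varied with transcript length in both regions, and the 9 genes span a wide range of lengths. Their longest annotated transcripts have 564 bases for Tyrobp, 875 for Aif1, 1088 for Trem2, 2242 for Tmem119, 2301 for Siglech, 2344 for P2ry12, 2528 for P2ry13, 4493 for Cx3cr1 and 4701 for Csf1r. In hippocampus the median log2 difference of all genes was -0.24 for the 151 genes of up to 600 bases, where 80.8% were lower, and went up with each longer class to 0.08 for genes over 6000 bases, where 21.4% were lower. In prefrontal cortex it ran from -0.28 to 0.06.

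Tyrobp, the shortest, was near the median of its length class in hippocampus and lower than it in prefrontal cortex. Its hippocampal difference of -0.19 compares with a class median of -0.24, and 54.3% of the genes of its class were lower than it. In prefrontal cortex its -0.35 compares with -0.28, and 39.7% of the class were lower than it. With the trend of each library on length removed, Tyrobp came to -0.02 in hippocampus and -0.14 in prefrontal cortex (adjusted p = 0.950 and 0.843 by limma).

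Aif1 and Trem2 lay under most genes of their length class in hippocampus. For Aif1 the class median (601 to 1000 bases) was -0.15 and 3.12% of genes were lower than it, and for Trem2 (1001 to 1500 bases) the median was -0.10 and 3.56% were lower. With the trend removed, Aif1 was -0.33 (adjusted p = 0.530 by limma) and Trem2 -0.28 (adjusted p = 0.430 by limma). In prefrontal cortex both lay at or above the middle of their class, with 75.1% of the class under Aif1 and 52.5% under Trem2.

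Among the long members, Cx3cr1 went against its class. Genes of 4001 to 6000 bases had a median of 0.03 in hippocampus and 0.04 in prefrontal cortex, and Cx3cr1 was at -0.20 and -0.15, with 3.31% and 4.93% of the class lower than it. Removing the trend left it at -0.22 and -0.17. Csf1r, in the same class, lay near the middle in hippocampus, with 54.7% of genes under it, and at 74.2% in prefrontal cortex. In the class of 2001 to 3000 bases, 9.32% of genes were under Tmem119, 18.9% under Siglech, 21.6% under P2ry12 and 14.2% under P2ry13 in hippocampus. In prefrontal cortex 2.60% were under P2ry13, whose difference there was -0.25 with the trend removed.

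With the trend removed the median of the 9 was -0.11 in hippocampus and -0.01 in prefrontal cortex. The genes under 1500 bases (Tyrobp, Aif1, Trem2) had a median of -0.39 in hippocampus as deposited and -0.28 with the trend removed, and the 6 longer ones -0.13 and -0.10. The count without overlap in hippocampus became 4 (Cx3cr1, Trem2, Aif1 and Siglech), where 6.98% of all genes did the same, and in prefrontal cortex 1 (P2ry13), against 6.18%. With values rescaled to equal totals it was 4 (Cx3cr1, Trem2, Tyrobp and Aif1, against 2.77%) and 0 (against 3.19%).

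The tilt with length also differed between libraries of a group. The median deviation of 691 genes of up to 1000 bases minus that of 1784 genes over 6000 bases was -0.08, -0.24 and 0.11 in irradiated hippocampus and 0.33, 0.17 and 0.03 in controls. In irradiated cortex it was -0.06, -0.38 and -0.07, and in control cortex 0.13, -0.03 and 0.10. The library with the lowest tilt, irradiated cortex of mouse 2, was also the one with the lowest Tyrobp. The part of the tilt in the Tyrobp difference was not tested beyond the removal of the trend.

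**Figure D3:**
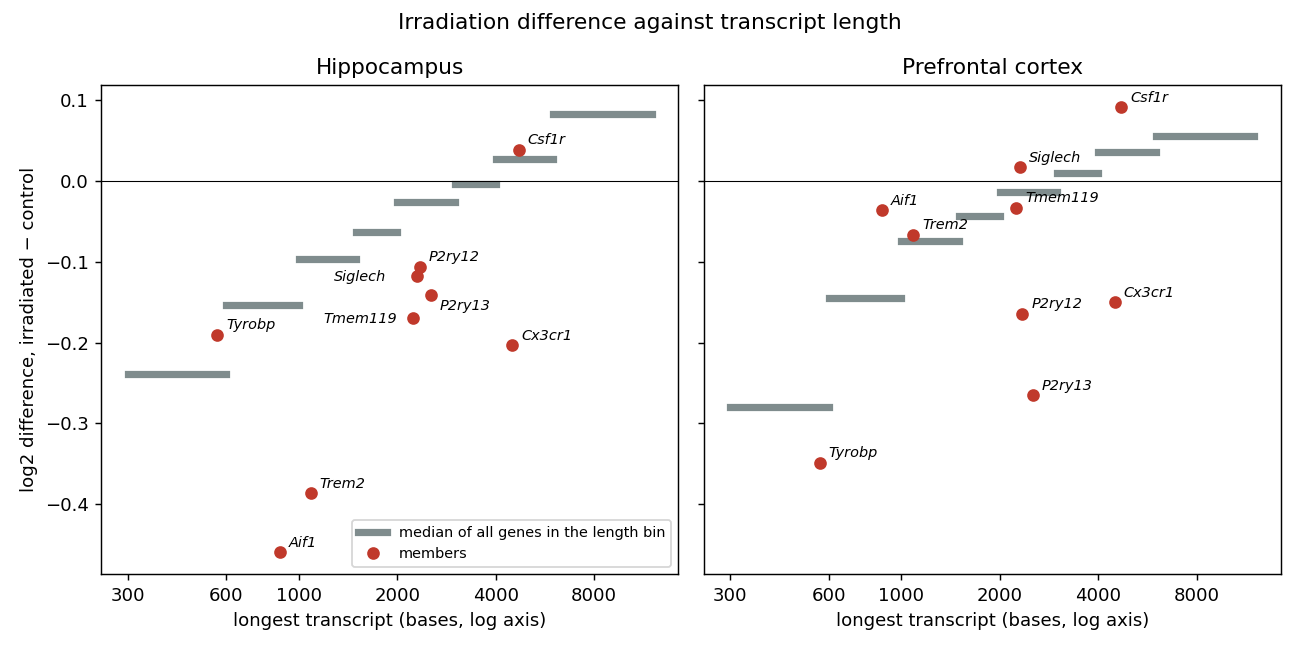
Log2 difference (irradiated minus control) against the longest transcript of a gene in bases (log axis), in hippocampus and prefrontal cortex; grey bars are the medians of all genes in a length class and red points the 9 genes. In hippocampus Trem2, Aif1 and Cx3cr1 lie well under the bar of their class and Tyrobp lies just above its bar.

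Other microglial genes went in both directions, with more lower than higher in each region. Of 30 further genes expressed by microglia, such as the receptor gene P2ry6, 29 were tested. In hippocampus 20 were lower and 9 higher, with a median of -0.05, beside 53.0% lower and a median of -0.01 over all genes tested. None passed, and 3 lower and 1 higher had an unadjusted p under 0.05, against 5.81% and 4.7% of all genes. The 4 were Ctss, a lysosomal protease (53.4 ± 5.70 against 63.5 ± 6.09 FPKM, -0.25), Laptm5 (-0.16), Itgb5 (-0.24) and Cd33, a sialic acid receptor (2.09 ± 0.0821 against 1.54 ± 0.239 FPKM, 0.28). In prefrontal cortex 17 were lower and 12 higher, with a median of -0.03, beside 48.8% lower and a median of 0.00 over all genes. The part of transcript length in these counts was not tested. The smallest p-values there were those of Crybb1 (0.33) and Ly86 (-0.26). The 3 chains of complement C1q, which microglia make, had lower means in both regions, with medians of -0.12 and -0.08 and none passing.

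Genes of the disease-associated programme were not higher as a list. Of 22, 19 could be tested in hippocampus, where 15 were lower and 4 higher (median -0.15), and 17 in prefrontal cortex, where 13 were lower and 4 higher (median -0.13). None passed. Over all genes tested 53.0% and 48.8% were lower, with medians of -0.01 and 0.00. The part of transcript length in the counts of this list was not tested. Lpl, lipoprotein lipase, measured 10.3, 11.5 and 11.5 FPKM in irradiated hippocampus and 15.3, 13.4 and 15.1 FPKM in controls, without overlap (-0.37, adjusted p = 0.417 by limma). Ctsz (-0.29) and Fabp5 (-0.22) were the next smallest p-values in the lower direction. Spp1, the osteopontin gene, went the other way in hippocampus, with 9.26, 6.10 and 9.96 FPKM against 2.05, 4.92 and 6.87 FPKM, which overlap (0.83, adjusted p = 0.475 by limma). In prefrontal cortex Apoe (1318 ± 98.9 against 1800 ± 181 FPKM, -0.45) and Fabp5 (-0.31) had the smallest p-values. Apoe, Fabp5 and Lpl are made by other brain cells as well. Cst7, Clec7a and Itgax, which mark the full programme, stayed under 0.494 FPKM in every library.

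Of the ligands and signalling partners of these receptors, 5 of 15 were lower and 10 higher in hippocampus (median 0.04), and 7 and 7 in prefrontal cortex. The part of transcript length in these counts was not tested. Over all genes tested 53.0% and 48.8% were lower. None of the ligands and partners passed and none had an unadjusted p under 0.05 in either region. In hippocampus Tgfb1, which keeps microglia in the resting state, differed by 0.18, Il34 by 0.12, Cx3cl1 by 0.08 and Tgfb2 by -0.12. Cx3cl1 measured 155 ± 5.95 against 147 ± 6.13 FPKM there, beside the lower Cx3cr1. Trem1 was listed at 0 in all 12 libraries, and Hcst, an adaptor related to Tyrobp, stayed under 0.977 FPKM.

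**Figure D4:**
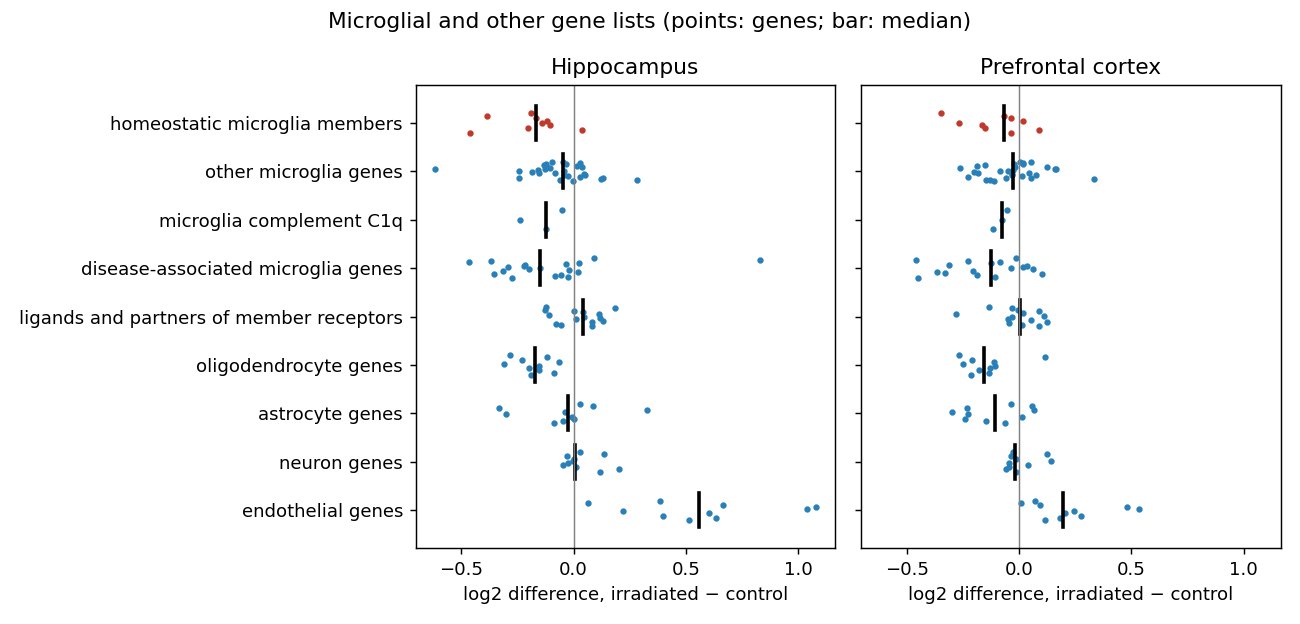
Log2 difference (irradiated minus control) of single genes in 9 lists, in hippocampus and prefrontal cortex; points are genes and black bars medians. The 9 homeostatic genes have medians of -0.17 and -0.07, and the endothelial list stands to the right in both regions at 0.56 and 0.19.

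Markers of other cells also differed by treatment. The summed FPKM of the 9 genes was 122 to 129 in irradiated and 138 to 142 in control hippocampus, and 113 to 126 against 127 to 141 in cortex. Oligodendrocyte genes were lower, 10 of 10 in hippocampus (median -0.17, sums 2127 to 2253 against 2315 to 2834 FPKM) and 9 of 10 in cortex (median -0.15, sums 1476 to 1634 against 1733 to 1895 FPKM). Endothelial genes were higher, 10 of 10 in both regions, with sums of 76.6 to 91.9 against 37.7 to 53.5 FPKM in hippocampus and 89.3 to 105 against 70.4 to 78.7 FPKM in cortex. Neuron genes had medians of 0.01 and -0.02 and astrocyte genes of -0.02 and -0.10. None of these genes passed in a comparison by treatment, and their part in the values of the 9 was not tested. Over all genes tested 53.0% were lower in hippocampus and 48.8% in cortex. The part of transcript length in the counts of these lists and of C1q was not tested.

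Macrophages and blood cells share several of the 9 genes. The summed level of 11 genes of border-associated macrophages was 8.04 to 10.8 FPKM in irradiated and 4.60 to 9.06 FPKM in control hippocampus, and 4.68 to 5.84 against 5.81 to 6.72 FPKM in cortex. That of 14 blood leukocyte genes was 3.46 to 15.8 against 0.450 to 2.72 FPKM in hippocampus and 2.49 to 15.3 against 1.58 to 3.95 FPKM in cortex. The neutrophil genes S100a8 (up to 7.11 FPKM) and S100a9 (up to 5.82 FPKM) made up 54.8% to 84.8% of the sum in irradiated libraries and 0% to 72.7% in controls. The monocyte gene Ccr2 stayed under 0.148 FPKM in every library. Choroid plexus, a tissue that borders the hippocampus, also differed between libraries: 10 of its 10 genes were lower in irradiated hippocampus (median -1.17), and 9 of 10 without irradiated mouse 2 (median -0.09), while the median was -1.86 without irradiated mouse 3. Irradiated hippocampus of mouse 2 stood apart with a choroid plexus sum of 126 FPKM, against 3736 to 6651 FPKM in the other hippocampi and 63.2 to 138 FPKM in cortex. Without that library the hippocampal differences were -0.34 for Trem2, -0.46 for Aif1, -0.20 for Cx3cr1 and -0.15 for Tyrobp.

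Within groups the 9 genes did not vary as one unit. Over the 36 pairs, Pearson's r of the deviations from the group means in the 12 libraries ran from -0.71 (Aif1 with P2ry12) to 0.67 (Siglech with Cx3cr1), with a median of 0.10 and 24 positive. Trem2 and its adaptor Tyrobp had an r of 0.57. These values are descriptions over 12 libraries that share length tilt and library totals. The genes whose deviations were most like the mean of the 9, among 12218 ranked, were Leprot (r = 0.94), Slc25a26, Agt, Rarres2, Mettl16, Bloc1s3, Slc25a33, Fam162a, Pam16 and Anapc4 (r = 0.90), none of which is in the microglial lists. The 99th percentile of r over the ranked genes was 0.80, so high values are common at the top of so long a ranking. The 29 other microglial genes had a median r of 0.25 with the mean of the 9, and 22 were positive, against a median of 0.03 over all genes.

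The spread within groups differed between the genes. Relative SDs of the 9 genes within a group of 3 ran from 0.987% (Csf1r, control hippocampus) to 16.3% (Tyrobp, irradiated cortex). The depth was estimated from the smallest values at 15.7 to 19.0 M (mega) fragments per library, similar in all groups. Csf1r had the most estimated fragments, 1789 to 2460 per library, and counting alone gives it an error of 2.02% to 2.36%. For Trem2, with 197 to 313 fragments, that error was 5.65% to 7.13%, near its spread within groups of 4.94% to 9.18%.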

How the data were processed

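Hippocampus and prefrontal cortex RNA of 6 mice (Trizol, NEBNext Ultra II Directional libraries, per the labels' protocols) was analysed as 12 libraries in 4 groups of 3 by their titles. Per the submitters' processing notes, TopHat (no version stated) and the build mm10 were used. The sources used here do not name the counting tool, the annotation or the use of strand. The tables deposited by the authors give a gene symbol and a value per library without a named unit, and the values were taken as FPKM from their sums (381417 to 435534) and their relation to transcript length. FPKM are relative to the library total, so a few abundant genes can move all others. The sums were 387367 to 419823 in irradiated and 417801 to 435534 in control hippocampus. In prefrontal cortex they were 381417 to 406369 in irradiated and 416042 to 420431 in control libraries. Counts were not used, and depth and fragments per gene were estimated from the steps between the smallest values, so counting errors are approximate.

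Differences were tested with limma-trend (limma 3.58.1, R 4.3.3) on log2(FPKM + 1), which understates changes of low genes, leaving out genes whose mean over the libraries compared was under 1 FPKM. All tests were two-sided with Benjamini-Hochberg adjustment over all genes tested and a threshold of 0.05. The fit was run on simulated data with independent noise, no length tilt and larger shifts than those of the homeostatic genes. That run does not bear on differences as small as theirs. Intervals are at 95%. Lengths, positions and overlaps come from GENCODE M21 (mm10), which matched 22148 of 23183 symbols (95.54%), and promoters from RefSeq (GRCm38.p6). The length trend was removed per library with a smoothing spline (6 degrees of freedom), and for the counts without overlap with a polynomial of degree 4.

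The 9 genes, the 13 gene lists and the tests were chosen with earlier results of these data known. Lists are described by counts and medians without a test of the list. A list of 9 mitochondrially encoded genes had no gene in the tables. Named genes are the 9, up to 4 genes per other list with the smallest p in hippocampus and up to 2 in prefrontal cortex, and the 10 genes most like the mean of the 9. Exceptions are said to be so, or are defining markers given for their low level. Alternatives were a pseudocount of 0.1, no filter on low values, equal library totals, the length trend removed, 1 fit over all 12 libraries, robust moderation, a replicate block and leaving out each library. Counts of genes lower or without overlap under these, and the choroid plexus median with each hippocampus library left out, were added after seeing the data.

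The titles number the mice, and libraries of a treatment with the same number in both regions were taken as 1 mouse. Between treatments numbers join different mice. There, deviations of same-numbered libraries from their group means correlated at 0.141, 0.120 and 0.117 in prefrontal cortex, and at 0.103, -0.017 and -0.160 in hippocampus. The largest r of each irradiated library with a control library of another number was -0.003, -0.025 and 0.003 in prefrontal cortex. In hippocampus it was 0.066, 0.239 and 0.218. A higher r at the same number therefore does not by itself show that libraries share a mouse. Between regions same-numbered libraries correlated at 0.174, 0.256 and 0.300 in irradiated and 0.290, -0.006 and 0.054 in control mice. The largest r of each hippocampus library with a cortex library of another number was -0.051, -0.088 and -0.036 in irradiated mice. In controls it was -0.127, 0.058 and 0.171, which for mice 2 and 3 is above the r of the same number.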

Additional observations from a re-analysis of the deposited data

How the results depend on the processing

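None of the 9 genes passed limma's test in a treatment comparison or in the difference between regions, under any alternative or with any library left out. Between control regions 1 passed (Trem2) with 1 fit over all 12 libraries. Over all genes, the number passing in hippocampus was 4 with equal totals, 1 with the fit over 12 libraries and 3 with robust moderation. In prefrontal cortex it was 2 without the filter and 0 with the fit over 12 libraries. For the difference between regions it was 1 without the filter, and for the mean per mouse 0 without the filter, 0 with the length trend removed and 2 with the replicate block. In the treatment comparisons the replicate block joined values of the same number, which come from different mice. Between control regions and for the difference between regions it joined libraries taken as 1 mouse. The block changed no call of the 9 genes and moved no other count by over 1.5 times. Equal totals shifted the median of all genes by under 0.1 in each region. Under them the median of the 9 was -0.0885 in hippocampus, 0.0041 in prefrontal cortex (a change of sign), -0.1002 per mouse and 0.0388 between control regions. They turned the sign of Tmem119 (0.0374), Trem2 (0.0041) and Aif1 (0.0313) in prefrontal cortex, of Siglech per mouse (0.0186), and of P2ry13 (-0.0058) and Siglech (-0.0151) between control regions. Then 4 of the 9 were lower in prefrontal cortex, 0 without overlap, and 2 were lower in control hippocampus. With the length trend removed the median was -0.0085 in prefrontal cortex and -0.1082 per mouse. Signs turned for Trem2 (0.0274) and Aif1 (0.0869) in prefrontal cortex and for Tyrobp (-0.1109) and Siglech (-0.0103) between control regions, where 2 were lower, and 1 gene was without overlap in prefrontal cortex. Leaving out each library in turn, the genes passing ranged from 0 to 1 in hippocampus, 1 to 4 in prefrontal cortex, 0 to 2 for the difference and 1 to 3 per mouse. The median of the 9 ranged from -0.1334 (without irradiated mouse 3) to -0.0094 (without control mouse 3) in prefrontal cortex, from -0.1179 to -0.0102 for the difference and from 0.034 to 0.1298 between control regions, where 0 to 3 were lower. Genes whose sign turned ranged from -0.0006 to 0.0602 (Csf1r, hippocampus), and in prefrontal cortex from -0.1353 to 0.0222 (Tmem119), -0.1536 to 0.0511 (Aif1) and -0.0207 to 0.086 (Siglech). For the difference they ranged from -0.0102 to 0.1745 (P2ry12), -0.1179 to 0.0081 (Cx3cr1) and -0.1175 to 0.0045 (Csf1r). Between control regions they ranged from -0.0409 to 0.088 (P2ry13), -0.0301 to 0.0959 (Cx3cr1), -0.0376 to 0.0891 (Tyrobp) and -0.0229 to 0.049 (Siglech). The causes were not tested. Depth limits Aif1 most, which had the fewest estimated fragments.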

Other observations

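Among genes of the disease-associated list, Spp1 had differences of opposite sign in the regions, higher after irradiation in hippocampus (0.83) and lower in prefrontal cortex (-0.46), where it measured 2.99, 3.45 and 3.28 FPKM against 3.87, 5.40 and 5.33 FPKM without overlap. The difference between the regions was 1.29 (interval 0.46 to 2.12, unadjusted p = 0.00523, adjusted p = 1.00 by limma). Ctsz, a lysosomal protease gene, differed between the regions in the other direction (-0.33, unadjusted p = 0.0094, adjusted p = 1.00 by limma), with 27.3 ± 1.03 against 26.7 ± 0.712 FPKM (SD, n = 3) in prefrontal cortex. Cd33 differed between the regions by 0.41 (unadjusted p = 0.0158, adjusted p = 1.00 by limma), and in prefrontal cortex its irradiated libraries (1.54 to 1.57 FPKM) were all under its controls (1.61 to 2.20 FPKM). These genes were picked out after their values were seen, and none passed.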
